A study of Homo sapiens with 24 samples.

Results

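The 4 stathmin genes (STMN1, STMN2, STMN3 and STMN4) and 6 tubulin genes (TUBB2A, TUBB2B, TUBB3, TUBB6, TUBA1A and TUBA1C) were followed through early differentiation of human embryonic stem cells (hESCs) with and without depletion of the transcription factor RUNX1. These 10 genes were chosen by the log2 signals of the 72 hr arrays and by their families, with earlier results of these data known. On those arrays STMN2 was among the genes with the largest fall in RUNX1-depleted cells. Every value of the 72 hr contrast between the arms is therefore given as a description with no test. The 10 genes were read from 10 of 67528 transcript clusters on the array (1 cluster per gene, the array's unit for a transcribed locus). Of these, 8 belong to the 23781 clusters with exactly 1 gene symbol over which all tests ran. STMN1 shares its cluster label with MIR3917 and TUBB3 with MC1R, so these 2 genes were read from the same fit over all clusters, and signal of the second gene cannot be told apart from theirs.

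All arrays came from H9, an established hESC line grown without feeder cells, infected with a GIPZ lentivirus and selected with puromycin as a pool. The shNS arm carried a non-silencing shRNA and the shRUNX1 arm 1 shRNA clone against RUNX1, so effects of RUNX1 loss and of that single hairpin cannot be told apart. Undifferentiated cells (0 hr) were compared with cells after 8, 24 and 72 hr in medium with fetal bovine serum, which gave 8 groups of 3 arrays (24 arrays), described as independent experiments. RUNX1 itself had a log2 signal of 5.89 to 5.97 in shNS and 5.81 to 5.99 in shRUNX1 cells at 0 hr, 6.28 to 6.65 and 6.22 to 6.41 at 8 hr, 6.55 to 6.73 and 6.09 to 6.47 at 24 hr, and 6.14 to 6.58 and 5.95 to 6.45 at 72 hr, so the arms' arrays were separate at 24 hr and overlapped at the other times. These are RNA signals, and the paper judged the knockdown of RUNX1 protein by western blot. The 8 hESC markers measured were all above the median of the tested values (6.251), and replicate arrays correlated at r = 0.987 to 0.997.

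Microtubules are hollow polymers of alpha- and beta-tubulin dimers that grow and shrink at their ends. Stathmins bind free tubulin dimers and promote disassembly, and phosphorylation switches them off. STMN1 is the soluble form found in most dividing cells, whereas STMN2 (also called SCG10), STMN3 and STMN4 are membrane-anchored forms known from neurons, where STMN2 marks growing axons. The tubulin genes encode isotypes that differ mainly in their tails: TUBB2A, TUBB2B, TUBB3 and TUBA1A are known for high levels in the nervous system, while TUBB6 and TUBA1C are expressed more widely.

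STMN2 changed most among the 10 genes. Values are log2 signals normalized by the authors, so 1 unit is a 2-fold difference, and they compare arrays for 1 gene, not genes with each other. In shNS cells STMN2 was 7.55, 7.91 and 8.50 in replicates 1, 2 and 3 at 0 hr and 7.74, 7.33 and 7.61 at 8 hr. It was 12.38, 12.65 and 11.41 at 24 hr and 11.81, 12.53 and 11.34 at 72 hr. The 6 later shNS arrays all lay above the 6 earlier ones, with nothing in between. In shRUNX1 cells the arrays read 8.08, 7.29 and 7.98 at 0 hr, 6.69, 6.64 and 7.21 at 8 hr, 9.0, 11.32 and 11.06 at 24 hr, and 8.31, 10.28 and 8.87 at 72 hr. The RUNX1-depleted arrays were thus also high at 24 hr, but spread widely there, and the 72 hr arrays lay partly below the 24 hr ones.

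Expression of STMN2 rose 17.9-fold from 0 to 24 hr in shNS cells (log2 difference 4.16, SE 0.52, adjusted p = 6.25e-06) and by 2.67 on the log2 scale in shRUNX1 cells (SE 0.52, adjusted p = 0.00101). The shNS rise was 4.79 on the log2 scale without shNS replicate 3. The shRUNX1 rise was 3.55 without replicate 1 of that arm and 1.99 without replicate 2, and its call ended in the methods' test on each cluster (adjusted p = 0.142). All tests are limma's, two-sided, with p adjusted by the Benjamini-Hochberg method over all tested clusters. A gene was called at an adjusted p under 0.05 with a fold over 1.5. The rise fell in the interval from 8 to 24 hr, a step compared after the values had been seen: 4.59 in shNS cells (adjusted p = 8.34e-05) and 3.61 in shRUNX1 cells (adjusted p = 0.00174). The latter was 4.26 without shRUNX1 replicate 1, and its call was lost without shRUNX1 replicate 3 (3.49, adjusted p = 0.0711) and when only the arrays compared were fitted (adjusted p = 0.0525). Between 0 and 8 hr STMN2 did not pass the test in either arm (-0.43, adjusted p = 0.682, and -0.94, adjusted p = 0.275).

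The mean difference between the arms was larger at each later time. STMN2 was lower in shRUNX1 than in shNS cells by 0.20 at 0 hr (95% confidence interval of the difference -1.30 to 0.90, adjusted p = 0.863) and by 0.71 at 8 hr (-1.81 to 0.38, adjusted p = 0.721). It was lower by 1.69 at 24 hr (-2.79 to -0.59, adjusted p = 0.139) and by 2.74 at 72 hr, the contrast that chose it. At 24 and 72 hr no shRUNX1 array reached the lowest shNS array, whereas at 0 hr the arms overlapped. The 24 hr difference did not pass the test over all clusters. It passed, at -2.12, when shRUNX1 replicate 2 was left out (adjusted p = 0.0365). Leaving out replicate 1 of that arm, the lowest array of its group, gave -0.96 (adjusted p = 0.454). The change from 0 to 24 hr was smaller in shRUNX1 cells by 1.49 (SE 0.74, 95% interval -3.04 to 0.06), and this difference between the arms did not pass the test (adjusted p = 0.684).

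At 72 hr the fall of STMN2 ranked 6 of 23781 tested clusters, after EMP1 (-3.09), ANKRD1 (-2.99), NRK (-2.85), ADGRL4 (-2.80) and LOX (-2.75) and just before GLIPR1 (-2.73). Array descriptions carry a letter, of unstated meaning, and only the letter C occurs in both arms, on shNS replicate 3 and shRUNX1 replicate 1. Within it the STMN2 difference, 1 array against 1, was -0.41 at 0 hr and -0.92 at 8 hr, then -2.41 at 24 hr and -3.03 at 72 hr.

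In order of its mean, STMN2 was highest in shNS cells at 24 hr (12.15 ± 0.65, SD, n = 3), followed by shNS at 72 hr (11.89 ± 0.60), shRUNX1 at 24 hr (10.46 ± 1.27) and shRUNX1 at 72 hr (9.15 ± 1.01). Next came shNS at 0 hr (7.99 ± 0.48), shRUNX1 at 0 hr (7.79 ± 0.43), shNS at 8 hr (7.56 ± 0.21) and shRUNX1 at 8 hr (6.85 ± 0.31). Neighbouring groups in this order overlapped, except shNS at 72 hr with shRUNX1 at 24 hr, which were separated by 11.34 against 11.32, and shNS with shRUNX1 at 8 hr. The genes with the most similar pattern over the 24 arrays were RBMS3 (an RNA-binding protein, r = 0.954), NT5E (a surface enzyme that makes adenosine, 0.944), COL5A2 (a collagen chain, 0.941), PRKCA (a protein kinase C, 0.936) and CAMK2N1 (an inhibitor of CaM kinase II, 0.933). These correlations describe arrays that share groups and time points.

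**Figure D1:**
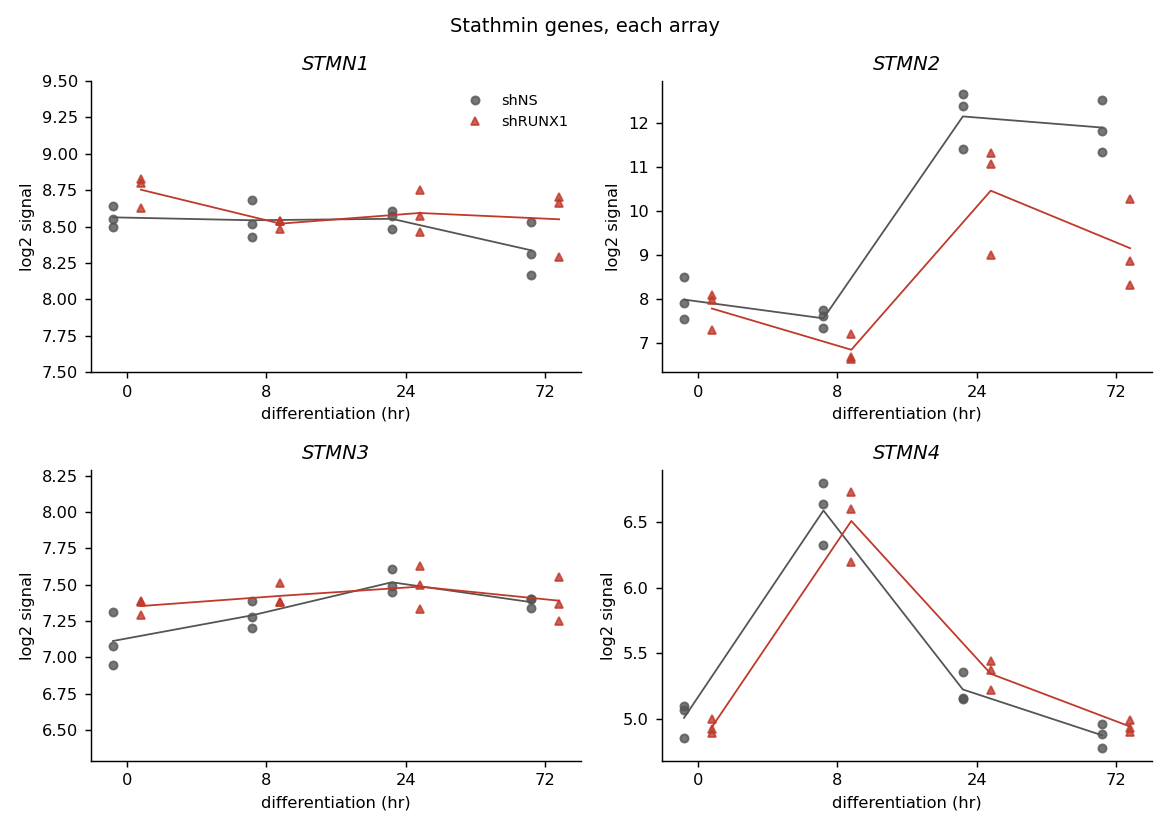
Log2 signal of STMN1, STMN2, STMN3 and STMN4 (1 panel each, with its own vertical axis) against time in differentiation medium, drawn at equal steps. Grey circles are shNS arrays, red triangles shRUNX1 arrays and lines join the means of 3 arrays; STMN2 is high from 24 hr on, at 11.34 to 12.65 in shNS and 8.31 to 11.32 in shRUNX1 cells, and STMN4 peaks at 8 hr in both arms.

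STMN4 followed another course, with a short peak at 8 hr. Its shNS arrays read 5.07, 4.85 and 5.10 at 0 hr, 6.33, 6.80 and 6.64 at 8 hr, 5.16, 5.15 and 5.36 at 24 hr, and 4.88, 4.96 and 4.78 at 72 hr. In shRUNX1 cells the values were 4.89, 5.0 and 4.92, then 6.6, 6.73 and 6.20, then 5.22, 5.44 and 5.37, then 4.90, 4.93 and 4.99. In both arms all 8 hr arrays were above every other array, and the arms overlapped at each time. The rise to 8 hr was 1.58 in shNS (SE 0.12, adjusted p = 6.81e-08) and 1.57 in shRUNX1 cells (adjusted p = 8.25e-08), and from 8 to 24 hr STMN4 fell by 1.37 (adjusted p = 1.28e-05) and 1.17 (adjusted p = 9.9e-05). Its mean over all arrays, 5.43, lay below the median of the tested values. CXCL8, an inflammatory chemokine, was most similar to it (r = 0.972), then ARAP2 (0.961) and RHOBTB2 (0.936), regulators or relatives of small GTPases. The arms differed in STMN4 by between -0.08 and 0.12 at the 4 times, and at 8 hr the interval of the difference was -0.34 to 0.17.

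STMN1 and STMN3 were not called in any comparison. STMN1 was well expressed and stable, between 8.17 and 8.83 on all 24 arrays, and its arm differences lay between -0.02 and 0.21. STMN3 lay between 6.95 and 7.63, with arm differences of -0.03 to 0.24. From 0 to 24 hr it rose by 0.40 in shNS cells (adjusted p = 0.00334, under the fold limit) and by 0.13 in shRUNX1 cells (adjusted p = 0.379). The 2 stathmins called higher than at 0 hr thus rose at different times, STMN4 at 8 hr and STMN2 at 24 hr.

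Among the beta-tubulins, TUBB6 rose by 8 hr and stayed above its 0 hr level. In shNS cells it read 9.64, 9.85 and 9.35 at 0 hr, 11.38, 11.18 and 10.81 at 8 hr, 11.56, 11.37 and 11.49 at 24 hr, and 11.03, 11.19 and 10.84 at 72 hr. In shRUNX1 cells it read 9.19, 9.37 and 9.21, then 10.83, 11.04 and 10.82, then 10.60, 11.02 and 10.83, then 10.15, 10.82 and 10.26. Every array after 0 hr was above every 0 hr array, in both arms. The rise to 8 hr was 1.51 in shNS (SE 0.17, adjusted p = 6.7e-06) and 1.64 in shRUNX1 cells (adjusted p = 3.93e-06), and the differences from 0 hr at 24 hr, 1.85 and 1.56, and at 72 hr, 1.41 and 1.15, were also called (adjusted p from 2.7e-07 to 0.000179).

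TUBB6 was the other gene of the set whose arms stood apart at 24 hr by over 1.5-fold. It was lower in shRUNX1 cells by 0.36 at 0 hr (adjusted p = 0.246), 0.23 at 8 hr (adjusted p = 0.728), 0.65 at 24 hr (SE 0.17, 95% interval -1.02 to -0.29, adjusted p = 0.0992) and, without a test, 0.61 at 72 hr. Its shRUNX1 arrays all lay below the shNS arrays at 24 and 72 hr. The 24 hr difference missed the threshold. It passed when shRUNX1 replicate 2 (-0.75, adjusted p = 0.0294) or shNS replicate 3 (-0.64, adjusted p = 0.0484) was left out and with the replicate number as a block (adjusted p = 0.039). It did not pass without shNS replicate 1 or 2 (adjusted p = 0.426 and 0.379) or shRUNX1 replicate 1 or 3 (adjusted p = 0.35 and 0.233). Nor did it pass when only the arrays compared were fitted (adjusted p = 0.268) or in the methods' test on each cluster (adjusted p = 0.408). ACTB, cytoplasmic beta-actin (r = 0.989), TPM4, a tropomyosin (0.982), and KLF7, a transcription factor (0.981), had the most similar pattern over the 24 arrays.

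The mean of TUBB2A rose at each step in both arms, but the steps after 8 hr, compared after the values had been seen, were not called. From 8 to 24 hr and 24 to 72 hr they were 0.75 and 0.37 in shNS and 0.42 and 0.31 in shRUNX1 cells (adjusted p from 0.115 to 0.678). The shNS arrays of TUBB2A read 12.57, 12.90 and 11.91 at 0 hr, 13.59, 13.49 and 13.13 at 8 hr, 14.30, 14.48 and 13.68 at 24 hr, and 14.53, 14.64 and 14.40 at 72 hr. The shRUNX1 arrays read 11.94, 12.31 and 12.38, then 13.12, 13.47 and 13.59, then 13.93, 13.38 and 14.15, then 13.59, 14.48 and 14.30. The arms overlapped at all 4 times. Against 0 hr the increase was 0.94, 1.69 and 2.06 at 8, 24 and 72 hr in shNS cells (adjusted p = 0.0188, 6.67e-05 and 9.7e-06) and 1.2, 1.61 and 1.92 in shRUNX1 cells (adjusted p = 0.00474, 0.000247 and 9.02e-05). The 8 hr calls did not hold when some replicates were left out. In shNS cells the call ended without replicate 1 or 3 (adjusted p = 0.153 and 0.0666), though the rise was still 0.90 and 0.80. In shRUNX1 cells it ended without replicate 3 (adjusted p = 0.0566). AP2A2, a subunit of the endocytic AP-2 adaptor (r = 0.958), NXN (0.946) and KRT8, a keratin (0.945), were most similar to TUBB2A.

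TUBB2B, its neighbour on chromosome 6 with no protein-coding gene between them in the RefSeq annotation, rose later and less. It was called at 72 hr only, with 1.11 in shNS (adjusted p = 0.000292) and 0.90 in shRUNX1 cells (adjusted p = 0.0042), when its arrays lay between 12.71 and 13.39 against 11.76 to 12.29 at 0 hr. The 2 genes correlated at r = 0.901 over the 24 arrays. Their coding sequences are nearly identical, so probes may respond to both transcripts, and how much of the shared course this makes up was not tested. The genes most similar to TUBB2B were AP2S1, another AP-2 subunit (r = 0.911), LRATD2 (0.908) and FN3KRP (0.902). TUBB3, the beta-tubulin used most often as a neuronal marker, stayed between 5.66 and 5.97 on all arrays, below the median of the tested values, and was not called in any comparison.

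The alpha-tubulins TUBA1A and TUBA1C rose by 24 hr in both arms, past the fold limit in shNS cells only, and TUBA1A then fell back. TUBA1A read 14.09, 14.11 and 13.99 in shNS cells at 0 hr, 14.66, 14.50 and 14.35 at 8 hr, 14.87, 14.89 and 14.45 at 24 hr, and 14.00, 14.26 and 14.03 at 72 hr. The shRUNX1 values were 13.83, 13.90 and 13.92, then 14.26, 14.51 and 14.41, then 14.39, 14.47 and 14.53, then 13.88, 13.86 and 13.83. The 0 and 72 hr arrays were the low ones in both arms. The rise at 24 hr was 0.67 in shNS (adjusted p = 9.13e-05) and 0.58 in shRUNX1 cells (adjusted p = 0.000776, under the fold limit). The arms' difference in this change was -0.1 and was not called (adjusted p = 0.921). From 24 to 72 hr TUBA1A fell by 0.64 in shNS (adjusted p = 0.00299) and 0.60 in shRUNX1 cells (adjusted p = 0.00588). These last 2 calls ended when only the arrays compared were fitted (adjusted p = 0.118 and 0.152). The shNS call also ended without replicate 1 (0.126) or 2 (0.0523) and the shRUNX1 call without replicate 3 (0.186). PLPPR5, a phospholipid phosphatase-related membrane protein (r = 0.935), TUBA4A, another alpha-tubulin (0.928), and AMIGO2 (0.907) were most similar.

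TUBA1C ranged from 11.96 to 12.91 and was called at 24 hr in shNS cells, with a rise of 0.70 (adjusted p = 3.81e-05). In shRUNX1 cells the 24 hr rise was 0.56 (adjusted p = 0.000677, under the fold limit). The arms' difference in this change was -0.14 and was not called (adjusted p = 0.875). The 8 hr rise of TUBA1C in shNS cells, 0.48, had an adjusted p of 0.00301, under the fold limit. From 24 to 72 hr it differed by -0.26 in shNS and -0.24 in shRUNX1 cells (adjusted p = 0.274 and 0.24), and at 72 hr shNS cells were 0.44 above 0 hr (adjusted p = 0.00336, under the fold limit). At 24 hr the shRUNX1 arrays (12.46, 12.67 and 12.70) lay below the shNS arrays (12.91, 12.86 and 12.76), a difference of -0.24 (adjusted p = 0.272). TUBA1C correlated with TUBB6 at r = 0.962 and with TUBA1A, its near-identical neighbour on chromosome 12, at 0.817. ADAM19, a membrane metalloprotease, PEA15 and HGS all reached r = 0.965 with it.

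**Figure D2:**
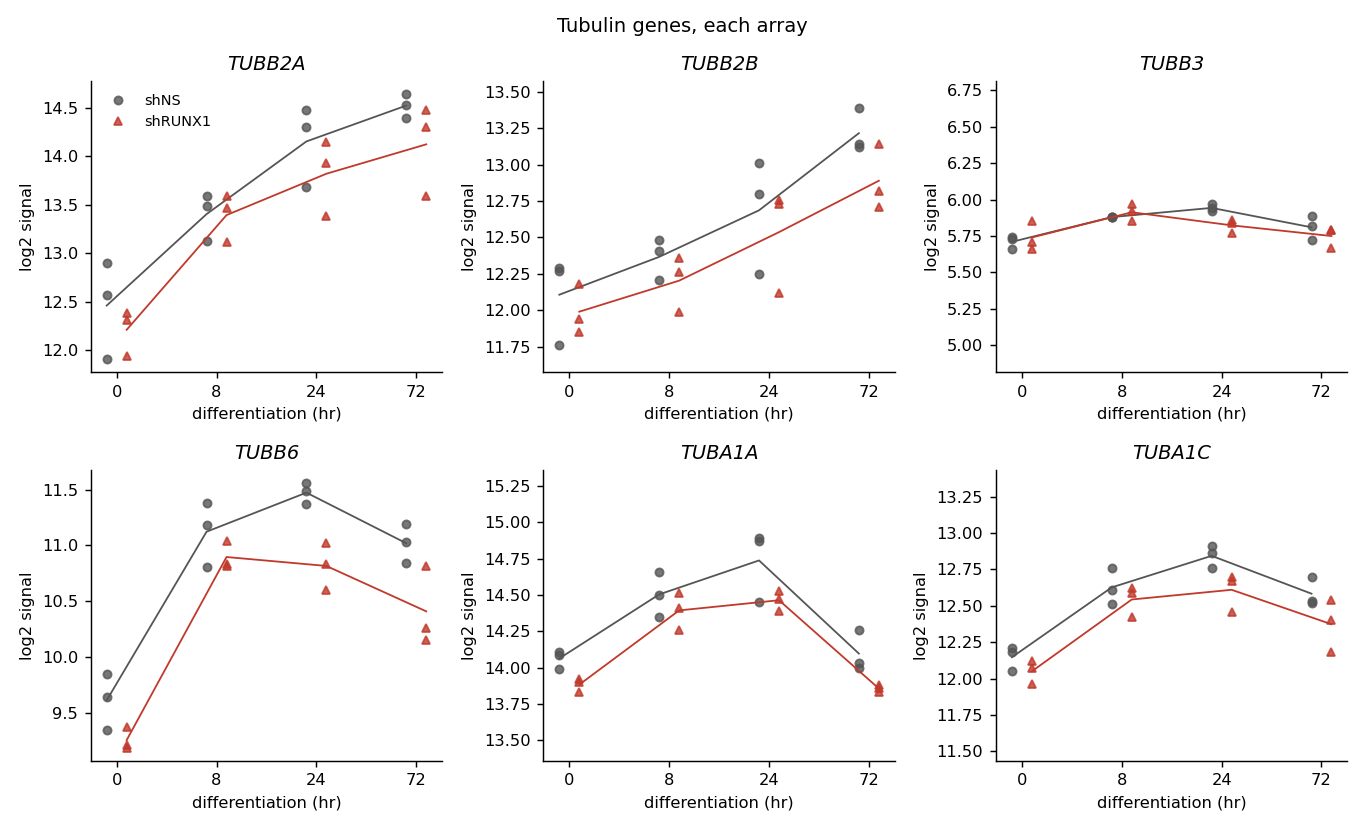
Log2 signal of the 6 tubulin genes (1 panel each, with its own vertical axis) against time in differentiation medium, drawn at equal steps. Grey circles are shNS arrays, red triangles shRUNX1 arrays and lines join the means of 3 arrays; TUBB6 rises by 8 hr, TUBB2A and TUBB2B rise to 72 hr, TUBA1A returns towards its 0 hr level, and TUBB3 stays between 5.66 and 5.97.

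Counted together, 3 of the 10 genes rose by 8 hr in shNS cells (STMN4, TUBB2A and TUBB6), against 4.68% of all tested clusters, and 5 of 10 by 24 hr (STMN2, TUBB2A, TUBB6, TUBA1A and TUBA1C), against 7.72%. At 72 hr 3 of the 9 genes tested were higher (TUBB2A, TUBB2B and TUBB6), against 7.3%. In shRUNX1 cells 3 of 10 rose by 8 hr (against 3.84%), 3 of 10 by 24 hr (5.25%; 6 of 10 after quantile normalization or median centring) and 3 of 9 by 72 hr (3.76%). None was called lower than at 0 hr at any time. For the steps compared after the values had been seen, 2 of 10 were called from 8 to 24 hr in each arm (STMN2 up, STMN4 down), against 2.78% of all tested clusters in shNS and 1% in shRUNX1 cells. From 24 to 72 hr 1 of 9 was called in each arm (TUBA1A down), against 1.17% and 1.77%. The median change of the members at 24 hr was 0.62 in shNS and 0.56 in shRUNX1 cells, against 0.012 and -0.019 over all tested clusters. Because the members were chosen with earlier results of these data known, these counts and medians describe the set and test no enrichment.

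Between the arms, 0 of 10 genes were called by limma at 0, 8 or 24 hr, where 1%, 0.00421% and 0.114% of all tested clusters were called. At an unadjusted p under 0.05 there were 1, 0 and 4 genes, against 21%, 8.53% and 16.4% of all tested clusters. With the authors' criteria in a test on each cluster there was none either, and 1 (TUBB6) with the replicate number as a block at 24 hr. Of the 10 differences 7, 8 and 8 were negative at 0, 8 and 24 hr, with medians of -0.11, -0.08 and -0.20 against 0.039, 0.018 and 0.01 over all clusters. These signs are not independent, since members correlate with each other (TUBB6 with TUBA1C at r = 0.962). Some of the differences are also minute, such as -0.01 for TUBB2A at 8 hr. The arms' arrays did not overlap for 4 genes at 24 hr (STMN2, TUBB3, TUBB6 and TUBA1C), all lower in shRUNX1 cells, against 9.99% of all tested clusters. An exact permutation test of 3 against 3 arrays gives 0.1, the smallest p it allows, for any gene whose arms do not overlap. It therefore adds nothing for these 4 genes. At 0 hr TUBA1A alone, and at 8 hr STMN2 alone, stood apart (backgrounds 9.84% and 7.74%).

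At 72 hr the differences without a test were -2.74 for STMN2, -0.61 for TUBB6, -0.40 for TUBB2A, -0.32 for TUBB2B, -0.24 for TUBA1A and -0.21 for TUBA1C. They were 0.21 for STMN1, 0.07 for STMN4, 0.01 for STMN3 and -0.06 for TUBB3. The arms did not overlap for STMN2, TUBB6 and TUBA1A (background 9.38%). For the 0 to 24 hr change, 9 of the 10 genes had a smaller value in shRUNX1 cells, but none of these differences was called (0 of all tested clusters were). The comparisons of the 0 to 24 hr change and of the arms at 0 and 24 hr share arrays, and several of the 10 genes correlate with each other.

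**Figure D3:**
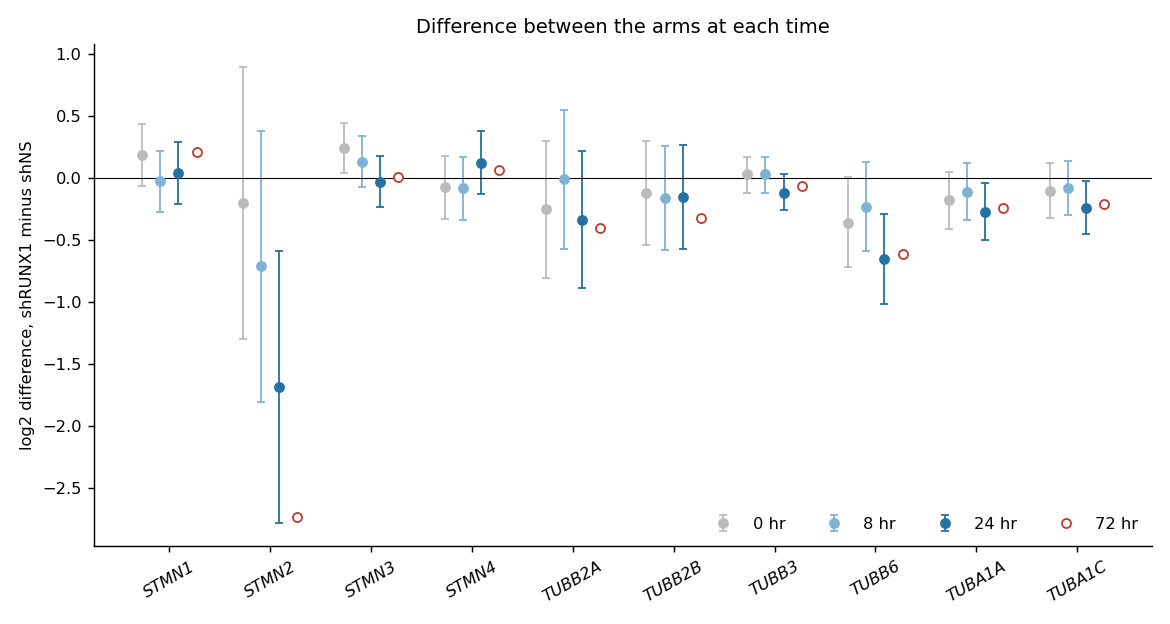
Log2 difference between the arms (shRUNX1 minus shNS, 3 arrays each) for the 10 genes at 0, 8, 24 and 72 hr. Bars are 95% confidence intervals from limma; the open 72 hr points carry no interval because that contrast chose the genes. STMN2 runs from -0.20 to -2.74, and the other genes stay between -0.65 and 0.24.

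The promoters of TUBB6, TUBB2A, TUBB2B and TUBA1A, which rose, are shown so that their sequence features can be set beside these courses. Each is the 250 bases before an annotated RefSeq start (GRCh38.p14), written in the direction of the gene, and the capitals mark matches on either strand. The letters searched were CCAAT for the CCAAT box, GGGCGG for the GC box and TATAAA for the TATA box, and TGTGGT for RUNX and GGAATG for TEAD sites.
TUBB6, start 1, chr18:12307419-12307668, plus strand: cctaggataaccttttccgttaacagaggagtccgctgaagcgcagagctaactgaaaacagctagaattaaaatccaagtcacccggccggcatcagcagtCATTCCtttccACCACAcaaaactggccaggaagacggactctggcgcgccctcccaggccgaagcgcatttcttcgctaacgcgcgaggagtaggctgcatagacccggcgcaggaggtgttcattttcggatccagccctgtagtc
TUBB6, start 2, chr18:12307991-12308240, plus strand: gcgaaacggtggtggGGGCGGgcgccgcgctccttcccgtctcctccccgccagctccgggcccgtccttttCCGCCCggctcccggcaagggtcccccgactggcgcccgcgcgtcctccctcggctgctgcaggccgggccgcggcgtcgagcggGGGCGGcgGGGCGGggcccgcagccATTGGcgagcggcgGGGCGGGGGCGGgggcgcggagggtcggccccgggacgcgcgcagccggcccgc
TUBB2A, chr6:3157545-3157794, minus strand: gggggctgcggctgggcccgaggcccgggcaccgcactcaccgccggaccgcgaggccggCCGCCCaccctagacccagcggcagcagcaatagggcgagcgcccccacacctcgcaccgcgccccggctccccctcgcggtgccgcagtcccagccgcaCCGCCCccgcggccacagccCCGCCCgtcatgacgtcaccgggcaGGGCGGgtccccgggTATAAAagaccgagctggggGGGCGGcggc
TUBB2B, chr6:3227654-3227903, minus strand: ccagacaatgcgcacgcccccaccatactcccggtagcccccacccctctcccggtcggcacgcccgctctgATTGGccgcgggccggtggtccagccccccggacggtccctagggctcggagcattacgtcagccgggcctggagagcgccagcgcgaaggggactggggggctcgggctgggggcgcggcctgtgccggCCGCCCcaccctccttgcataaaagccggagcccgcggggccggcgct
TUBA1A, chr12:49189081-49189330, minus strand: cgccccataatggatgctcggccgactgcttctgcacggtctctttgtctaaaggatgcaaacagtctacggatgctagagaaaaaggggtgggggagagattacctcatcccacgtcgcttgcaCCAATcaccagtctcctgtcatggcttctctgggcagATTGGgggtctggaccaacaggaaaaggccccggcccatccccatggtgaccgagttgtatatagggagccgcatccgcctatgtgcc

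TUBB6 has 2 annotated starts with unlike promoters. The window before start 1 holds 1 RUNX and 1 TEAD match, on the opposite strand and beginning 137 and 148 bases before the start, and no GC box, whereas that before start 2 holds 6 GC boxes and 1 CCAAT box and has a GC content of 83.6%. The 2 neighbours TUBB2A and TUBB2B also differ: TUBB2A has 5 GC boxes and a TATA box 30 bases before its start, TUBB2B 1 GC box and 1 CCAAT box. TUBA1A has 2 CCAAT boxes and no other match. TUBA1C, which also rose, has 3 annotated starts, whose windows (not printed) hold 1 CCAAT box each, and in the third 2 GC boxes as well. Promoter windows were at hand for 8 of the 10 genes (those of STMN2 and STMN4 were not used here), and in the remaining windows, of STMN1, STMN3, TUBB3 and TUBA1C, no RUNX or TEAD match was found. Of 35116 promoters in the table, 11.0% hold the RUNX letters, 11.9% the TEAD letters, 32.0% the CCAAT box, 42.6% the GC box and 10.7% the TATA box. A match is a run of letters, not a bound site.

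Other genes of the microtubule system were measured for 87 of 92 listed. In shNS cells 8 were higher and 4 lower at 8 hr than at 0 hr (4.68% and 3.73% of all tested clusters), 12 and 11 at 24 hr (7.72% and 7.94%), and 6 and 9 at 72 hr (7.3% and 7.77%). In shRUNX1 cells the counts were 7 and 2 (3.84% and 3.17%), 9 and 4 (5.25% and 5.7%), and 6 and 2 (3.76% each way). Of 14 other tubulins measured, 1 was called against 0 hr, TUBA4A, which rose by 0.78 at 24 hr in shNS cells (adjusted p = 1.14e-05). This 1 of 14 is near the 7.72% of all tested clusters called higher there. In shRUNX1 cells 0 of the 14 were called at 24 hr. The tubulins called higher than at 0 hr in at least 1 arm were TUBB2A, TUBB2B, TUBB6, TUBA1A, TUBA1C and TUBA4A, and 13 other tubulins were not called.

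Among the tubulin folding factors TBCB, which handles alpha-tubulin, rose by 0.93 at 24 hr in shNS (adjusted p = 3.97e-06) and 0.68 in shRUNX1 cells (adjusted p = 0.00021). Of the proteins that bind along microtubules, DCLK1, a doublecortin-like kinase, rose most, by 2.94 at 8 hr in shNS (adjusted p = 1.02e-09) and 2.86 in shRUNX1 cells (adjusted p = 1.28e-09). MAP1B and MAP4, which stabilise microtubules, rose by 1.39 and 1.29 at 24 hr in shNS cells and by 1.73 and 1.16 in shRUNX1 cells (adjusted p from 6.72e-08 to 6.84e-05). MAP2, best known from dendrites, fell by 1.91 in shNS cells at 24 hr (adjusted p = 0.000239).

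CLIP1, a protein that tracks growing ends, rose at 8 hr by 1.04 in shNS (adjusted p = 0.00102) and 1.33 in shRUNX1 cells (adjusted p = 0.000121). SLAIN1, which promotes growth at those ends, fell by 1.14 and 1.04 (adjusted p = 0.000107 and 0.000333). KATNA1, the severing subunit of katanin, rose by 0.83 and 0.74 at 8 hr (adjusted p = 8.83e-06 and 4.46e-05), while SPAST, the severing enzyme spastin, fell by 0.86 at 24 hr in shNS cells (adjusted p = 0.00012). Of the enzymes that act on the tubulin tail, TTL, which adds back the terminal tyrosine, rose by 0.65 at 24 hr in shNS cells and by 0.70 in shRUNX1 cells (adjusted p = 0.000904 and 0.000812). VASH2, which removes it, fell by 1.96 and 1.53 (adjusted p = 7.13e-05 and 0.00135). Between the arms, 2 of the 87 were called at 0 hr, near the 1% of all tested clusters called there. Both were lower in shRUNX1 cells: FIGNL1 (-0.61, adjusted p = 0.0193) and MAP1A (-0.73, adjusted p = 0.0334). None was called at 8 or 24 hr, against 0.00421% and 0.114% of all tested clusters.

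**Figure D4:**
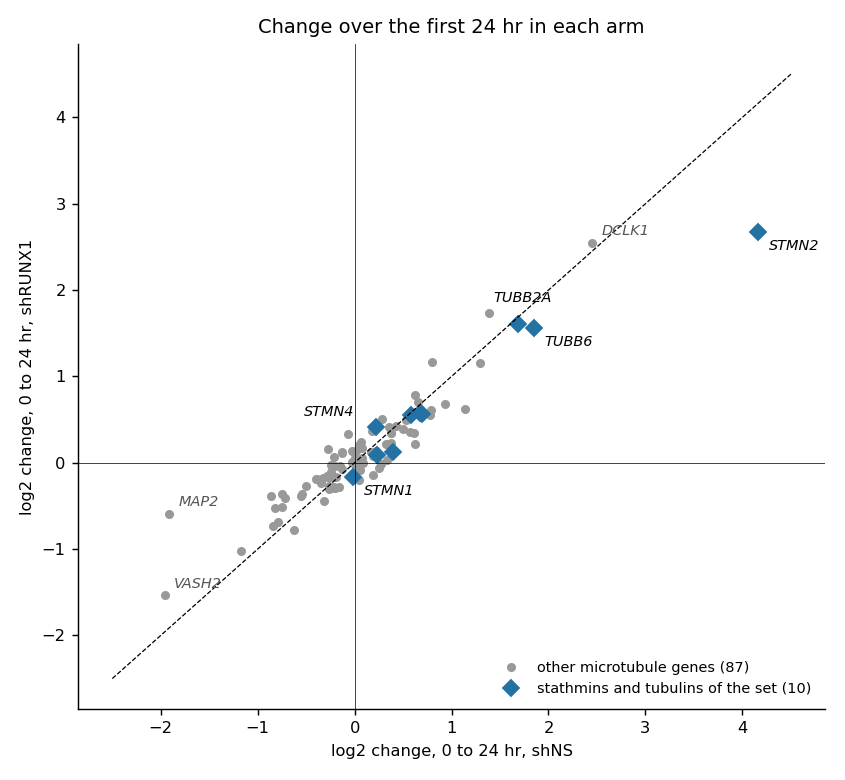
Log2 change from 0 to 24 hr in shRUNX1 cells against that in shNS cells, for the 10 stathmin and tubulin genes (blue diamonds) and 87 other microtubule genes (grey circles), each point a difference of means of 3 arrays per group. On the dashed line both arms change equally; STMN2 (4.16 against 2.67) lies to the right of it, and the difference between the arms did not pass the test (adjusted p = 0.684).

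Because several of these genes are known from neurons, 17 neuronal markers were listed, of which 15 were measured and 7 lay above the median of the tested values. In shNS cells 3 were higher and 1 lower at 24 hr (7.72% and 7.94% of all tested clusters), and in shRUNX1 cells 2 and 2 (5.25% and 5.7%). INA, a neurofilament protein, rose by 3.30 (adjusted p = 4.01e-06), GAP43, a growth cone protein, by 1.40 (adjusted p = 1.84e-05) and SNAP25, of the synaptic release machinery, by 0.86 (adjusted p = 5.69e-05), while NEFM, another neurofilament protein, fell by 1.24 (adjusted p = 1.98e-05). In shRUNX1 cells INA and GAP43 rose by 2.47 and 0.94 at 24 hr (adjusted p = 0.00019 and 0.0017), and SCG3, a secretory granule protein, and NEFM fell by 1.31 and 0.79 (adjusted p = 0.0229 and 0.00263). The mean of the 15 markers lay between 7.15 and 7.23 in shNS and 7.01 and 7.09 in shRUNX1 cells at 24 hr. At 72 hr it lay between 7.0 and 7.32 and between 6.86 and 6.97. It was lower in shRUNX1 cells on every array at both times. Of all tested clusters taken singly, 9.99% and 9.38% were likewise apart and lower at these times. The median difference between the arms over the 15 genes was 0.01 at 24 hr and -0.08 at 72 hr, against 0.01 and 0.02 over all tested clusters, and none was called at 24 hr. INA (-1.38 and -1.91) and NEFL (-0.71 and -1.40) had the largest negative differences at 24 and 72 hr, those at 72 hr without a test. From 0 to 72 hr INA rose by 3.69 in shNS and 2.32 in shRUNX1 cells, and NEFL by 1.60 and 1.05. For both genes these rises differed by less than the 72 hr difference between the arms, so part of it was already present at 0 hr. At 0 hr the ranges of the mean of the 15 markers, 6.95 to 7.16 in shNS and 6.98 to 7.01 in shRUNX1 cells, overlapped. There 1 of the 15, NEFM, was called lower in shRUNX1 cells (-0.69, adjusted p = 0.0433), against 1% of all tested clusters called.

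The mean of the 8 hESC markers moved the other way. It was 13 to 13.39 in shNS and 13.08 to 13.43 in shRUNX1 cells at 0 hr, 11.89 to 12.13 and 12.10 to 13.02 at 24 hr, and 12.38 to 12.62 and 12.63 to 13.11 at 72 hr. The shRUNX1 arrays were thus all higher at 72 hr and overlapped with shNS at 24 hr by a narrow margin. Between the arms at 24 hr 1 of the 8 was called, against 0.114% of all tested clusters. This was CRIPTO, higher in shRUNX1 cells (1.95, adjusted p = 0.0415), and no hESC marker was called at 0 or 8 hr. The mean of the 10 proliferation markers per array lay between 12.43 and 12.75 in shNS and 12.32 and 12.71 in shRUNX1 cells at 72 hr. In such bulk samples fewer cells that express STMN2 and less STMN2 RNA per cell cannot be told apart, and the part of these marker shifts in its difference between the arms was not tested.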

How the data were processed

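Total RNA of 24 H9 cultures was hybridised to Affymetrix human transcriptome arrays. The deposited values are log2 signals per transcript cluster, which the authors normalized by RMA in Expression Console and tested in Transcriptome Analysis Console 1.0.0.234, with a fold over 1.5 and an FDR under 0.05; the genome build behind the clusters is not given in the sources used here. Array medians lay between 6.189 and 6.325, and the number of arrays limits the precision. Of 67528 clusters, 25324 had a gene symbol and 23781 exactly 1, through the platform annotation. Group means of 8 groups were fitted with limma 3.58.1 in R 4.3.3 (lmFit, eBayes with trend, 16 residual degrees of freedom), after a test of the script on simulated data. STMN2 was left untested wherever 72 hr arrays enter. The genes named besides the 10 are the called list members, at most the 4 largest each way, and the 3 to 5 most similar clusters. The members and lists were chosen with earlier results of these data known. Alternatives were quantile normalization, median centring, dim clusters left out, all clusters, only the arrays compared, no trend, the mean of clusters per gene, the methods' test on each cluster, blocks by replicate number or letter, and each replicate left out. Figures were drawn with matplotlib 3.10.9.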

Additional observations from a re-analysis of the deposited data

How the results depend on the processing

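Over 30 comparisons of single genes (the calls above and the 4 genes with an unadjusted p under 0.05 between the arms at 24 hr), 445 of 476 alternative values kept their direction and their side of the threshold, 27 fell below it, 4 rose above it and none of these reversed. The 72 hr difference in STMN2 ranged from -3.30 to -2.32 when single replicates were left out. With each cluster tested on its own as in the methods, 1 gene in place of 3 was called higher in shNS cells at 8 hr, 3 in place of 5 at 24 hr, and in shRUNX1 cells 1 in place of 3 at 24 hr and 0 in place of 3 at 72 hr; this test estimates the spread from the arrays of 1 cluster alone. Quantile normalization or median centring gave 6 in place of 3 in shRUNX1 cells at 24 hr. Between the arms at 24 hr, 1 gene in place of 0 was called with the replicate number as a block, and 0 to 2 when single replicates were left out. The main fit did not pair the arrays by replicate number. Pairing by number remains possible, because 7 of 12 same-number pairs of the arms correlated at over 0.1 (range -0.0356 to 0.35). With number as a block, TUBB6 was the gene called between the arms at 24 hr (adjusted p = 0.039). With 3 arrays a group, an arm difference in STMN2 of the size seen at 8 hr has an interval that includes 0, and dim genes (TUBB3, STMN4) can show less change than took place. With median centring the small arm differences of TUBB3 at 0 and 8 hr changed sign (to -0.02 and -0.01), as did that of STMN3 at 72 hr (to -0.05). Near-identical tubulin transcripts may share probe signal.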
